A study of Homo sapiens with 4 samples.

Results

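Mitochondria make few of their own proteins, so nearly all of them are made in the cytosol and carried in by translocases, then folded, trimmed or degraded by chaperones and proteases inside. The genes of this import and quality-control machinery were followed here in the human acute myeloid leukaemia line OCI-AML3, as a set of 42 genes of 41084 identifiers in the deposited tables. Members were chosen by name: the outer membrane translocase TOM, the inner membrane translocases TIM22 and TIM23 with their small TIM chaperones and the PAM motor, the sorting machinery SAM, the disulfide relay, the processing peptidase, the ATP-dependent proteases, the prohibitins and TRAP1. Each of the 42 symbols matched 1 Ensembl identifier.

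RNA was sequenced from 4 libraries. The genotype of 2 is given as Plex CEBPB and that of the other 2 as Plex Control. The word Plex is not explained in the sources used here, nor is the agent or construct behind either genotype. The product of CEBPB is the transcription factor C/EBPβ of myeloid and inflammatory genes, and the series title places it in resistance to inhibitors of BCL2 and MDM2. Nothing says that the replicates were separate cultures, so p-values measure the spread between these libraries, which may be technical.

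The library totals of estimated counts lay between 18151225 and 21950575. CEBPB itself stood at 536 and 339 TPM in the CEBPB libraries and at 4.72 and 4.47 TPM in the Control libraries, TPM being the relative transcript abundance of a gene within a library. Of 7 genes listed for myeloid leukaemia cells, CD33, LYZ, SPI1, CSF3R and NPM1 were clearly expressed. MPO was at 1.79 TPM or less and ANPEP at 0.792 TPM or less. NPM1, which is not particular to myeloid cells, had 1378 and 1314 TPM in CEBPB and 2312 and 2307 TPM in Control. The 7 summed to between 9234 and 9431 TPM in the CEBPB libraries and between 3928 and 4030 TPM in the Control libraries. LYZ carried this difference, with a log2 fold change of 2.34 in the fit described below. SPI1 (-1.16), CSF3R (-1.13), NPM1 (-0.96) and MPO (-2.43) were called lower in that fit, and CD33 (-0.09) did not pass. Of 12 markers of other cell types, 9 stayed under 1 TPM in all 4 libraries. The others were COL1A1, PDGFRB and PECAM1, of which PECAM1 is also made by myeloid cells. PECAM1 had 33.9 and 36.1 TPM in CEBPB and 86.6 and 77.6 TPM in Control, and was called lower (-1.41). COL1A1 and PDGFRB, at 3.97 TPM or less, did not pass.

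Most members fell. Of 41 members with enough counts to test, 27 were lower in the CEBPB libraries and 3 were higher, and 11 did not pass (edgeR's quasi-likelihood test, Benjamini-Hochberg adjusted p under 0.05 over all 13698 identifiers tested). That is 65.9% of the tested members lower, where 24.7% of all tested identifiers were lower, and 7.32% higher, where 23.7% of all were higher; in either direction 48.5% of all were called. The median log2 fold change of the tested members was -0.50. Over all tested identifiers it was 0.00092, with quartiles of -0.43 and 0.46. Tested against a change of 1.5-fold, 12 members were lower (29.3%, against 8.67% of all identifiers) and 0 were higher (against 8.66% of all), while 3 members were called higher by edgeR against no change. In bulk RNA, fewer cells of a type and less RNA per cell cannot be told apart.

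The scale matters for members that changed little. Fold changes are relative to the trimmed mean of M values, which places the typical gene at no change. In TPM, which is scaled by library totals, the median of all tested identifiers was 0.18 higher in the CEBPB libraries, so TPM ratios are less negative than the fitted fold changes by 0.18 on the log2 scale. With library totals, 4424 identifiers were higher and 2360 lower, against 3251 higher and 3390 lower in the fit used here. The members then gave 23 lower and 4 higher. In plain TPM, both CEBPB libraries lay below both Control libraries for 26 of the 41 tested members (28.6% of all tested identifiers) and above them for 10 (48.7% of all). After scaling by the trimmed mean of M values these numbers were 31 below (38.3% of all) and 6 above (38.4% of all).

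**Figure D1:**
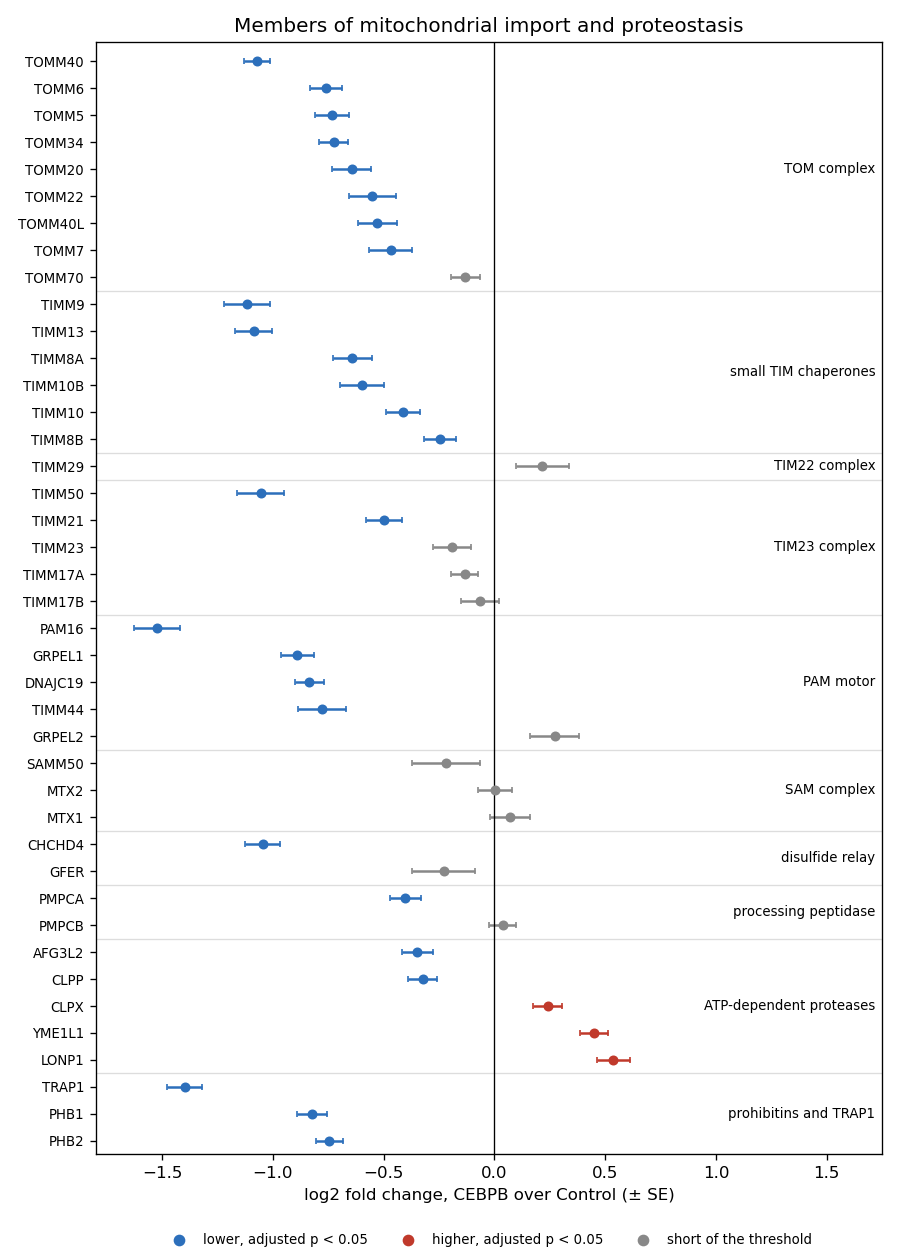
Log2 fold change of each tested member, CEBPB over Control, with its standard error, from 2 CEBPB and 2 Control libraries, grouped by role. The points run from -1.52 (PAM16) to 0.54 (LONP1), and the 3 members called higher are all ATP-dependent proteases.

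The members together summed to 3534 and 3521 TPM in the CEBPB libraries, against 4575 and 4487 TPM in the Control libraries. The groups did not overlap. By role, the sum of the PAM motor was 201 and 199 TPM in CEBPB, against 330 and 312 TPM in Control, and that of the prohibitins and TRAP1 was 410 and 391 TPM in CEBPB, against 667 and 659 TPM in Control. The ATP-dependent proteases went the other way, with 499.7 and 465 TPM in CEBPB and 378 and 383 TPM in Control. The sums of the processing peptidase overlapped, at 174 and 159 TPM in CEBPB and 167 and 164 TPM in Control.

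**Figure D2:**
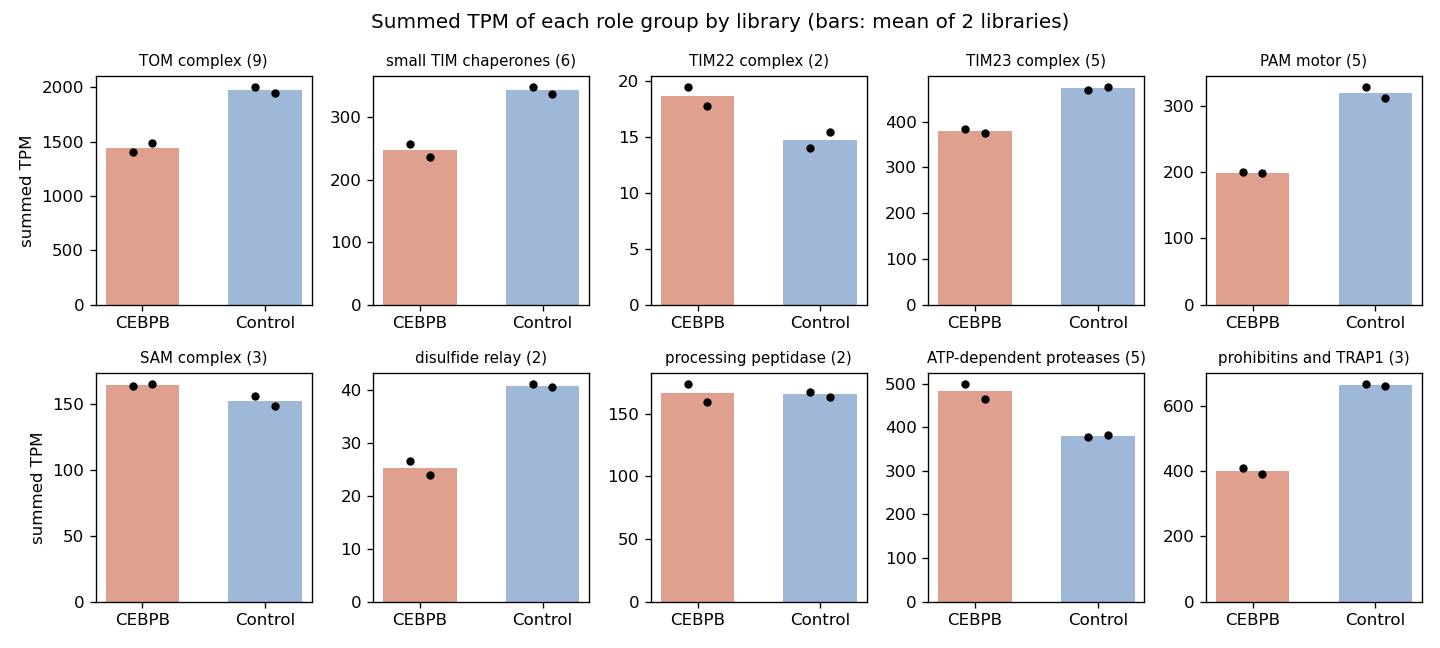
Summed TPM of each role group, with the number of member genes in brackets; bars are the means of 2 libraries and points are the libraries. CEBPB stands below Control for TOM, small TIM, TIM23, PAM, disulfide relay and prohibitins with TRAP1. It stands above Control for TIM22, SAM and the ATP-dependent proteases. In the proteases CEBPB averaged 482 ± 24.4 TPM and Control 380 ± 3.63 TPM (SD, n = 2 each). The TIM22 sum is nearly all TIMM29, which did not pass (adjusted p = 0.196, edgeR), and 0 of the 3 SAM members were called. Scaled by library totals, as TPM is, the median of all tested identifiers was 0.18 higher in CEBPB on the log2 scale.

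The TOM complex is the entry gate of the outer membrane. Of its 9 listed members 8 fell (88.9%, against 24.7% of all tested identifiers) and 0 rose (against 23.7%). With so few genes per role, here and in the roles below, nothing is read from these shares. TOMM40 (chromosome 19, 44890569 to 44903689, plus strand), the channel itself, had 71.2 and 67.6 TPM in the CEBPB libraries, against 128 and 129 TPM in the Control libraries. Both CEBPB values lay far below both Control values. The fitted change on the log2 scale was -1.07 (SE 0.06, adjusted p = 0.000259, edgeR), and it also passed the test against 1.5-fold (adjusted p = 0.0015, edgeR). TOMM6, a small subunit that steadies the complex, had 388 and 404 TPM in CEBPB and 596 and 591 TPM in Control (-0.76, SE 0.07, adjusted p = 0.000943, edgeR). TOMM34, a cytosolic cochaperone of precursor proteins, had 33.4 and 31.5 TPM in CEBPB and 47.5 and 47.4 TPM in Control (-0.73, SE 0.07, adjusted p = 0.000849, edgeR).

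The small subunits TOMM5 (-0.73) and TOMM7 (-0.47), the receptors TOMM20 (-0.64) and TOMM22 (-0.55), and the channel paralogue TOMM40L (-0.53) also fell on the log2 scale. TOMM7 was at 451 and 501 TPM in CEBPB and 604 and 563 TPM in Control, and lost its call without Control replicate 1 (adjusted p = 0.0673, edgeR). TOMM70, which receives the hydrophobic carrier precursors, had 63.9 and 63.0 TPM in CEBPB and 61.5 and 61.2 TPM in Control, and its fitted log2 fold change of -0.13 (SE 0.07) did not pass (adjusted p = 0.155, edgeR). TOMM70 turned to 0.048 when scaled by library totals, also short of the threshold (adjusted p = 0.602, edgeR).

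The small TIM proteins form hexameric rings that shield hydrophobic precursors in the intermembrane space. All 6 listed fell (100%, against 24.7% of all tested identifiers). TIMM9 (chromosome 14, 58408494 to 58427614, minus strand), partner of TIMM10 in the main ring, had 23.1 and 23.5 TPM in CEBPB, against 48.1 and 41.2 TPM in Control (-1.12, SE 0.10, adjusted p = 0.00093, edgeR). TIMM13 (chromosome 19, 2425624 to 2427894, minus strand) had 59.5 and 49.6 TPM in CEBPB and 103 and 102 TPM in Control (-1.09, SE 0.08, adjusted p = 0.000519, edgeR). Its ring partner TIMM8A, the gene of deafness-dystonia syndrome, had 17.8 and 17.2 TPM in CEBPB and 24.9 and 23.3 TPM in Control (-0.64, SE 0.09, adjusted p = 0.00289, edgeR). In these 3 genes the groups were well apart.

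TIMM10 (-0.41), TIMM10B (-0.60), which docks on TIM22, and TIMM8B (-0.24) also fell. TIMM8B had 73.8 and 66.2 TPM in CEBPB and 75.7 and 70.7 TPM in Control, so its groups overlapped in TPM. The TIMM8B call (adjusted p = 0.0395, edgeR) was lost without any 1 of the 4 libraries, with library totals, in both limma fits on log2 TPM and with DESeq2 (adjusted p = 0.0701), and the TIMM10 call without Control replicate 2 (adjusted p = 0.0625, edgeR).

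TIM22 inserts carrier proteins into the inner membrane. The identifier of TIMM22, its channel, was nearly empty: it read 0.00136 and 2.27e-08 TPM in the CEBPB libraries and 1.18 and 0.00414 TPM in the Control libraries, and it was too low to be tested. Only Control replicate 1 held a sizeable value. TIMM29, a subunit of the animal complex, had 19.4 and 17.8 TPM in CEBPB and 12.8 and 15.5 TPM in Control, and did not pass (0.22, SE 0.12, adjusted p = 0.196, edgeR).

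TIM23 takes precursors with a cleavable presequence through the inner membrane. Here 2 of 5 members fell (40%, against 24.7% of all tested identifiers). TIMM50 (chromosome 19, 39480412 to 39493785, plus strand), the receptor that hands precursors to the channel, had 92.5 and 106 TPM in CEBPB, against 178 and 188 TPM in Control (-1.06, SE 0.11, adjusted p = 0.0012, edgeR). TIMM21, which links TIM23 with TOM, had 56.1 and 59.9 TPM in CEBPB and 72.9 and 72.0 TPM in Control (-0.50, SE 0.08, adjusted p = 0.00573, edgeR). The channel gene TIMM23 had 102 and 84.4 TPM in CEBPB and 95.5 and 92.3 TPM in Control; the groups overlapped and it did not pass (-0.19, SE 0.09, adjusted p = 0.124, edgeR), though it did without CEBPB replicate 1 (-0.29, adjusted p = 0.0364, edgeR).

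TIMM17A (-0.13, adjusted p = 0.125, edgeR) and TIMM17B (-0.07, adjusted p = 0.567, edgeR), alternative partners of TIMM23, did not pass either. Both turned positive with library totals, at 0.046 and 0.11. TIMM17B shares all 4 of its values with 1 other identifier that has no symbol, so its reads were not told apart from that one. TIMM23B, the near-identical copy of TIMM23, held 5.09 and 3.73 TPM in CEBPB and 5.36 and 5.51 TPM in Control.

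The PAM motor pulls precursors into the matrix with the help of mitochondrial HSP70. Of its 5 listed members 4 fell (80%, against 24.7% of all tested identifiers). In the test against 1.5-fold 3 of them were lower (60%, against 8.67% of all). PAM16 (chromosome 16, 4331549 to 4355607, minus strand), a J-like protein that restrains the motor, had 16.8 and 14.2 TPM in the CEBPB libraries, against 41.7 and 37.3 TPM in the Control libraries. At -1.52 on the log2 scale (SE 0.10, adjusted p = 0.000394, edgeR) it was the most negative of the 41 tested members. DNAJC19, the J-protein counterpart of PAM16, had 63.2 and 62.5 TPM in CEBPB and 101 and 97.5 TPM in Control (-0.84, SE 0.07, adjusted p = 0.000592, edgeR). The pseudogene DNAJC19P5 held 9.28 and 11.2 TPM in CEBPB and 2.31 and 5.71 TPM in Control, and how reads were divided between them was not tested.

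GRPEL1, the nucleotide exchange factor of mitochondrial HSP70, had 74.8 and 77.8 TPM in CEBPB and 126 and 124 TPM in Control (-0.89, SE 0.07, adjusted p = 0.000666, edgeR). TIMM44, which ties the motor to the channel, had 30.4 and 31.4 TPM in CEBPB and 50.8 and 43.0 TPM in Control (-0.78, SE 0.11, adjusted p = 0.00317, edgeR). GRPEL2, the other exchange factor, had 15.4 and 13.2 TPM in CEBPB and 10.6 and 10.3 TPM in Control. GRPEL2 did not pass (0.27, SE 0.11, adjusted p = 0.0936, edgeR), but it did with library totals (0.45, adjusted p = 0.0314, edgeR) and in both limma fits on log2 TPM. The ratio of GRPEL1 to GRPEL2 in TPM was 4.87 and 5.88 in CEBPB, against 11.8 and 12.1 in Control.

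SAM builds beta-barrel proteins such as TOMM40 into the outer membrane. Of its 3 members 0 were called by edgeR, against 48.5% of all tested identifiers. The unadjusted edgeR p-values were 0.214, 0.471 and 0.986, and DESeq2 called 0 as well. The barrel subunit SAMM50 had 55.9 and 71.9 TPM in CEBPB and 68.7 and 62.9 TPM in Control, overlapping, although without CEBPB replicate 2 it passed as lower (-0.45, adjusted p = 0.0219, edgeR). The metaxins MTX1 (53.5 and 44.3 TPM in CEBPB, 39.7 and 42.5 TPM in Control) and MTX2 (54.7 and 49.5 TPM in CEBPB, 48.0 and 43.9 TPM in Control) lay close to no change in the fit, at 0.07 and 0.0014.

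In the disulfide relay, which folds cysteine-rich proteins of the intermembrane space, CHCHD4 (chromosome 3, 14112077 to 14124870, minus strand), the oxidoreductase also called MIA40, fell. It had 19.8 and 17.6 TPM in CEBPB, against 34.2 and 34.0 TPM in Control (-1.05, SE 0.08, adjusted p = 0.000515, edgeR). GFER, the sulfhydryl oxidase that recharges CHCHD4, had 6.69 and 6.22 TPM in CEBPB and 6.93 and 6.46 TPM in Control and did not pass (-0.23, SE 0.14, adjusted p = 0.241, edgeR). GFER shares its values with 1 other identifier without a symbol, so its reads were not told apart from that one and its level may be understated. The ratio of CHCHD4 to GFER was 2.97 and 2.83 in CEBPB, against 4.94 and 5.26 in Control.

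The processing peptidase, which cuts off presequences, is a pair of subunits, of which 1 fell (50%, against 24.7% of all tested identifiers). PMPCA, the substrate-holding subunit, had 76.2 and 68.0 TPM in CEBPB and 86.2 and 82.2 TPM in Control and fell (-0.40, SE 0.07, adjusted p = 0.0065, edgeR), though not without Control replicate 1 (adjusted p = 0.052, edgeR), with library totals (adjusted p = 0.08, edgeR) or in both limma fits on log2 TPM. PMPCB, the catalytic subunit, had 97.7 and 91.4 TPM in CEBPB and 81.3 and 81.4 TPM in Control and did not pass (0.037, SE 0.06, adjusted p = 0.644, edgeR), although limma on log2(TPM + 1) called it higher (0.21, adjusted p = 0.0437). The ratio of PMPCA to PMPCB was 0.779 and 0.744 in CEBPB and 1.06 and 1.01 in Control.

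ATP-dependent proteases were the one role group with members called higher. Of the 5 listed, 3 rose (60%, against 23.7% of all tested identifiers) and 2 fell (40%, against 24.7%). In the test against 1.5-fold 0 were called. With 5 genes, nothing is read from these shares. LONP1 (chromosome 19, 5691834 to 5720572, minus strand), the main protease of the matrix, had 105 and 93.9 TPM in the CEBPB libraries, against 58.1 and 62.8 TPM in the Control libraries (0.54, SE 0.07, adjusted p = 0.00298, edgeR). YME1L1 (chromosome 10, 27110112 to 27155266, minus strand), the i-AAA protease facing the intermembrane space, had 169 and 163 TPM in CEBPB and 105 and 109.6 TPM in Control (0.45, SE 0.06, adjusted p = 0.003, edgeR). For both genes the 2 groups were clearly separate, and the calls held in each alternative but the test against 1.5-fold.

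CLPX, the unfoldase that feeds the CLPP peptidase, had 83.5 and 76.5 TPM in CEBPB and 60.7 and 58.9 TPM in Control (0.24, SE 0.07, adjusted p = 0.0292, edgeR). CLPP itself had 69.0 and 67.4 TPM in CEBPB and 75.2 and 75.7 TPM in Control (-0.32, SE 0.06, adjusted p = 0.0101, edgeR), and the ratio of CLPP to CLPX was 0.826 and 0.882 in CEBPB, against 1.24 and 1.29 in Control. AFG3L2, a subunit of the m-AAA protease on the matrix side, had 73.1 and 64.3 TPM in CEBPB and 78.5 and 76.0 TPM in Control (-0.35, SE 0.07, adjusted p = 0.0112, edgeR). The CLPX call was lost without CEBPB replicate 1, Control replicate 1 or Control replicate 2 (adjusted p = 0.0738, 0.13 and 0.202, edgeR), with DESeq2 (0.0629) and on reads recovered from TPM and length (0.0698, edgeR). Its effective length was 0.19 higher in CEBPB on the log2 scale. The CLPP and AFG3L2 calls were lost without either Control library (adjusted p from 0.0574 to 0.0791, edgeR), with library totals (0.137 and 0.172) and in both limma fits on log2 TPM.

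The prohibitins PHB1 and PHB2 form ring-shaped scaffolds in the inner membrane, and TRAP1 is the HSP90 chaperone of mitochondria. All 3 fell (100%, against 24.7% of all tested identifiers), also in the test against 1.5-fold (100%, against 8.67%). TRAP1 (chromosome 16, 3651639 to 3717597, minus strand) had 62.9 and 65.8 TPM in CEBPB, against 146 and 154 TPM in Control (-1.40, SE 0.08, adjusted p = 0.000258, edgeR). PHB1 (chromosome 17, 49404049 to 49414905, minus strand) had 192 and 182 TPM in CEBPB and 303 and 282 TPM in Control (-0.82, SE 0.07, adjusted p = 0.000631, edgeR). PHB2 (chromosome 12, 6965327 to 6970825, minus strand) had 154 and 143 TPM in CEBPB and 218 and 223 TPM in Control (-0.74, SE 0.06, adjusted p = 0.000603, edgeR). The PHB1 to PHB2 ratio was 1.24 and 1.27 in CEBPB and 1.39 and 1.26 in Control, and these overlap.

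**Figure D3:**
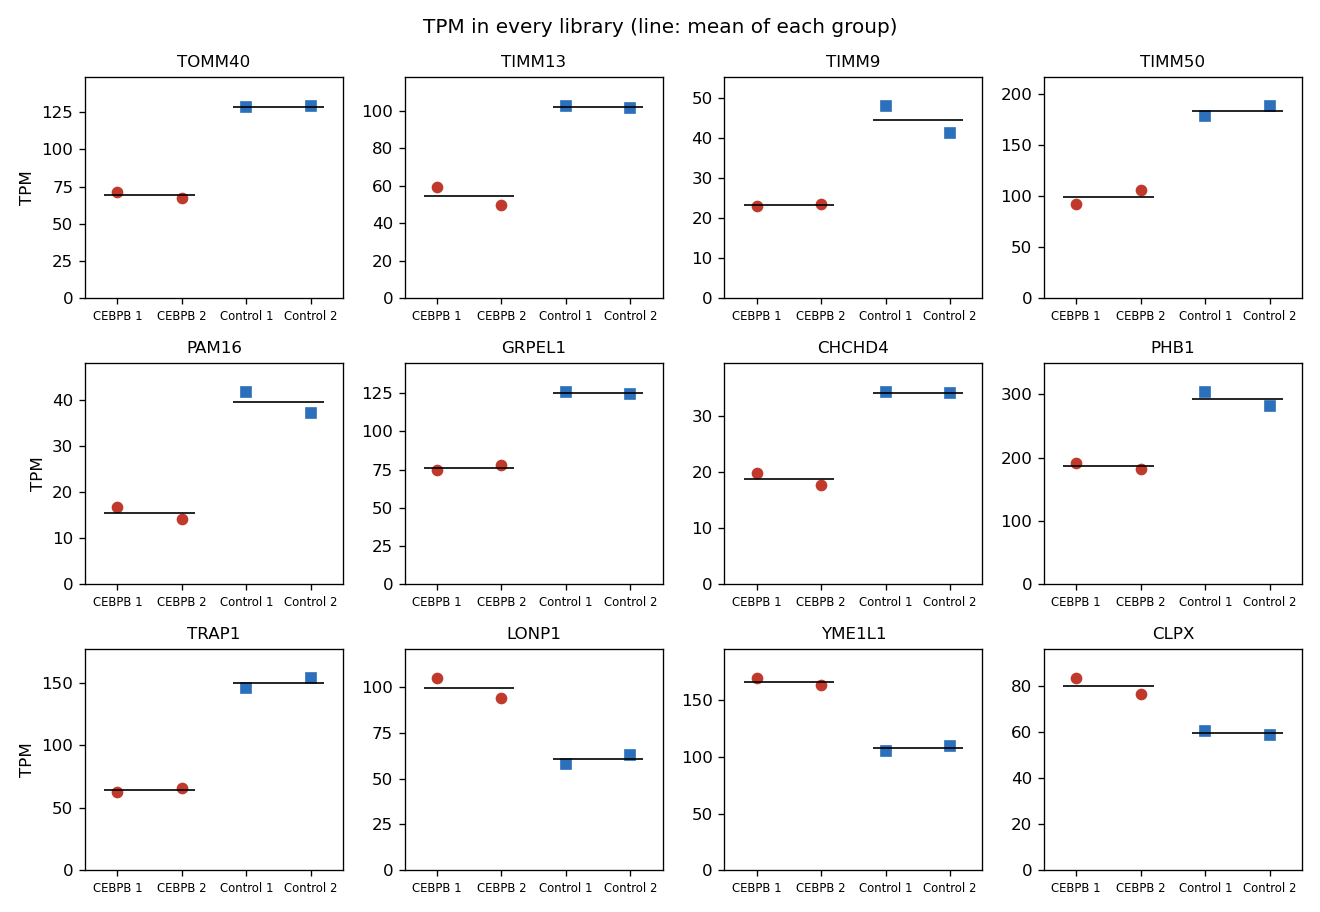
TPM in each CEBPB and Control library for 12 members, each panel on its own axis from 0, with lines at the group means. In the 9 genes shown that fell, both CEBPB libraries lie below both Control libraries, and in LONP1, YME1L1 and CLPX both lie above them. The 12 were picked from members already called, so nothing is read from this separation. Of all tested identifiers 28.6% lay below and 48.7% above in TPM.

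TPM ratios were set side by side for 9 pairs of paralogues or partners. The groups overlapped for TIMM17A to TIMM17B, at 3.67 and 3.23 in CEBPB and 3.64 and 3.58 in Control, and for PHB1 to PHB2. TIMM9 to TIMM10 was 0.371 and 0.373 in CEBPB and 0.675 and 0.541 in Control, TIMM8A to TIMM8B 0.241 and 0.26 in CEBPB and 0.329 and 0.329 in Control, and TOMM40 to TOMM40L 4.17 and 3.90 in CEBPB and 5.90 and 5.84 in Control. A ratio within a library does not depend on the scaling between libraries. It shows unequal change of the 2 genes, not which of them changed, and no test was made on it. TIMM17B and GFER each share their values with 1 other identifier, so the ratios over them may be too large. Groups that do not overlap are common here (28.6% of single identifiers below and 48.7% above in TPM), so nothing is read from how many pairs stood apart.

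**Figure D4:**
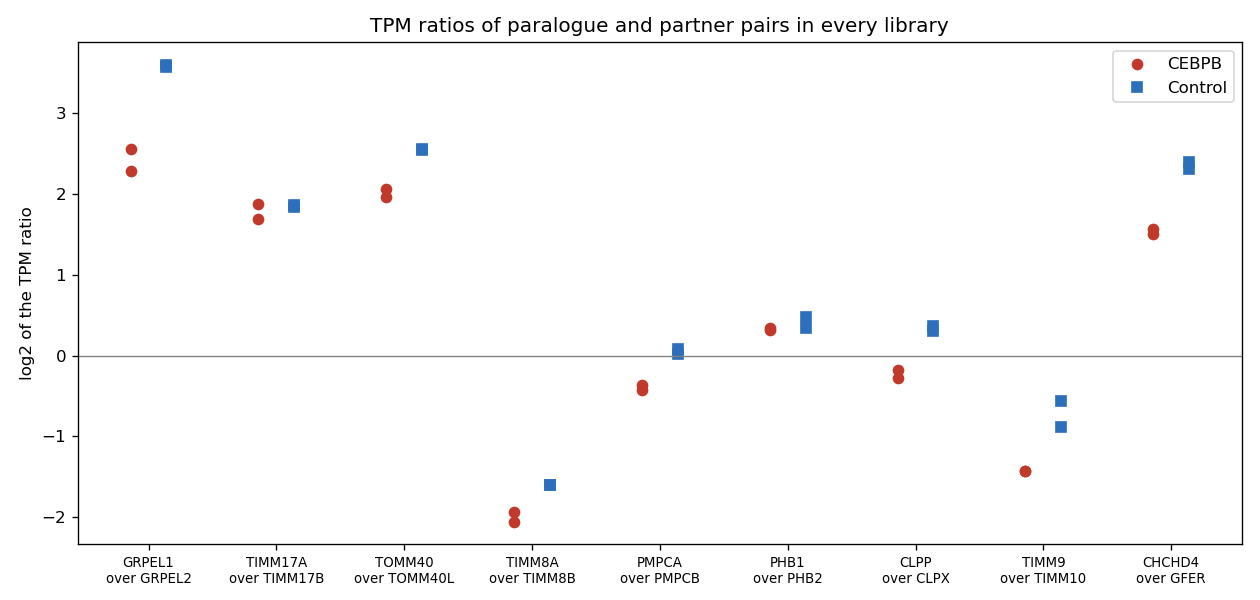
Log2 of the TPM ratio of 9 gene pairs in each library, CEBPB left and Control right of each position. GRPEL1 over GRPEL2 shows the widest gap between groups, at 4.87 and 5.88 in CEBPB and 11.8 and 12.1 in Control, and TIMM17A over TIMM17B and PHB1 over PHB2 overlap.

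Effective lengths, which depend in part on the mix of transcripts of a gene, differed for a few members. The median log2 change in length was 0.034 in the tested members and 0.032 over all tested identifiers. Whether the mix of transcripts changed was not tested. A change in the mean length of over 0.2 on the log2 scale, in either direction, was seen in 4 of 41 tested members (9.76%). Of all tested identifiers 16.4% changed by as much. GFER had effective lengths of 1662 and 1678 bases in CEBPB, against 1153 and 1309 bases in Control. TIMM10B had 2078 and 2469 bases in CEBPB and 1608 and 1809 bases in Control, DNAJC19 482 and 427 bases in CEBPB and 376 and 389 bases in Control, and TIMM29 847 and 762 bases in CEBPB and 1036 and 999 bases in Control. Both CEBPB libraries had longer effective lengths than both Control libraries in 20 of 41 members (48.8%, against 43% of all tested identifiers), and shorter ones in 4 (9.76%, against 9.27%).

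The promoters of the members were searched for 4 short motifs on both strands. RefSeq promoters (GRCh38.p14, 250 bases before to 50 after the start) were found for 37 of the 42 members. CACGTG, the E-box bound by MYC-MAX and USF proteins, was present in 4 of 37 (10.8%), against 10.3% of 9585 tested genes with a promoter. The NRF1 motif (GCGCA, any base, then GCGC), named for a regulator of nuclear genes of mitochondria, was present in 9 of 37 (24.3%), against 12.4%. It was held by 6 of the 23 promoters of members that fell and by 3 of the 11 of members that also passed the test against 1.5-fold. The C/EBP motif TTGCNNAA was present in 1 of 37 (2.7%), in TIMM23, against 7.05%, and CCAAT in 14 of 37 (37.8%), against 37.2%. A match describes letters in this window and is no binding site, and no test of these shares was made.

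Promoters are shown for 3 members that fell past 1.5-fold and hold the NRF1 motif, and for the 2 members called higher that matched a promoter. They are PAM16 at chr16:4351272-4351571 (minus strand), CHCHD4 at chr3:14124821-14125120 (minus strand), TOMM40 at chr19:44891004-44891303 (plus strand), LONP1 at chr19:5720097-5720396 (minus strand) and CLPX at chr15:65185293-65185592 (minus strand), each written 5′ to 3′ on the strand of its gene. Capitals mark the NRF1 motif or CACGTG on either strand. LONP1 holds 2 copies of CACGTG and CHCHD4 holds 2 of the NRF1 motif, while PAM16, TOMM40 and CLPX hold 1 NRF1 motif each.
PAM16: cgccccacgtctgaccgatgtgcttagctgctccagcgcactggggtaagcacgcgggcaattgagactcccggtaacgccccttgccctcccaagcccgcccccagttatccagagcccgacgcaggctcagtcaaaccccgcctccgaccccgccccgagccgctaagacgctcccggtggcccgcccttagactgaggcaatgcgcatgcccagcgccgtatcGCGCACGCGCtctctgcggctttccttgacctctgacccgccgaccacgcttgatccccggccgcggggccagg
CHCHD4: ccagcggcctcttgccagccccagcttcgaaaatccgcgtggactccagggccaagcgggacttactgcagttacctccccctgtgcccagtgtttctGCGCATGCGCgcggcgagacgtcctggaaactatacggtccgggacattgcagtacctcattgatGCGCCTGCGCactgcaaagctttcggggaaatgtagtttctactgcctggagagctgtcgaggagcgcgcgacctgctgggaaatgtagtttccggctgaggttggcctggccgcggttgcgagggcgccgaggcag
TOMM40: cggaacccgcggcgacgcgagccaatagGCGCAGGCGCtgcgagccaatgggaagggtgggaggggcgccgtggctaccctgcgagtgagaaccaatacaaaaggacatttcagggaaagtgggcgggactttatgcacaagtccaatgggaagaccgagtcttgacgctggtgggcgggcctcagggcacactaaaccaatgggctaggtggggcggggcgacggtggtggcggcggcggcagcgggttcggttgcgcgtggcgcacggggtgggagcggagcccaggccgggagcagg
LONP1: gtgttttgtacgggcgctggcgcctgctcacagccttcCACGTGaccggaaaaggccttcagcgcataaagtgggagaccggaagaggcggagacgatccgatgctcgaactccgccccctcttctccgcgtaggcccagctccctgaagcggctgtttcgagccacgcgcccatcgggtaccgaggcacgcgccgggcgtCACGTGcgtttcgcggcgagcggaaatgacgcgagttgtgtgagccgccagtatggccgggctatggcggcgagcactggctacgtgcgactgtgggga
CLPX: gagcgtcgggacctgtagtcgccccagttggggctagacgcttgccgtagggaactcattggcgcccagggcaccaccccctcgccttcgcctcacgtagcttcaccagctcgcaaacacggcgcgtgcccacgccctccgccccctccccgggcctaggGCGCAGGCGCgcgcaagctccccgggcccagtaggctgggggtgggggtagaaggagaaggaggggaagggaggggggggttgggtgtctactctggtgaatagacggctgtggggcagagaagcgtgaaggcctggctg

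Beyond the members, 47 other genes of mitochondrial import, folding, cristae and stress signalling were measured, and all 47 could be tested. Of these 22 fell (46.8%, against 24.7% of all identifiers) and 5 rose (10.6%, against 23.7%), with a median log2 fold change of -0.24. Scaled by library totals 13 fell and 10 rose. Whichever library was left out, fewer of the 47 fell, and fewer of all tested identifiers were called in either direction.

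The outer membrane insertase gene MTCH2 fell (30.1 and 27.8 TPM in CEBPB, 38.7 and 39.0 TPM in Control, -0.61) while its relative MTCH1 rose (99.0 and 95.6 TPM in CEBPB, 68.1 and 65.8 TPM in Control, 0.36), and the pore gene VDAC1 fell (-0.53). Matrix chaperones divided. HSPD1, the HSP60 chaperonin, had 1239 and 1273 TPM in CEBPB and 915 and 891 TPM in Control and rose (0.30, SE 0.07, adjusted p = 0.016, edgeR). Its cochaperonin HSPE1 had 992 and 1005 TPM in CEBPB and 730.4 and 709 TPM in Control and rose as well (0.29, SE 0.06, adjusted p = 0.0147, edgeR), whereas the J-protein DNAJA3 fell (-0.60). HSPA9, the HSP70 of the PAM motor, had 431 and 410 TPM in CEBPB and 348 and 342 TPM in Control and did not pass (0.11, adjusted p = 0.18, edgeR).

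Of 8 cristae genes 5 fell (62.5%, against 24.7% of all tested identifiers). In the test against 1.5-fold 3 of them were lower (37.5%, against 8.67% of all). MICOS10 had 81.2 and 76.8 TPM in CEBPB and 118 and 114 TPM in Control (-0.73), MICOS13 41.6 and 35.3 TPM in CEBPB and 58.1 and 64.9 TPM in Control (-0.86), and CHCHD6 4.83 and 5.22 TPM in CEBPB and 9.42 and 10.4 TPM in Control (-1.16). Among 13 further peptidases and their partners 5 fell (38.5%) and 1 rose (7.69%), against 24.7% and 23.7% of all tested identifiers. STOML2, a prohibitin relative that binds YME1L1, fell (-0.53), and the presequence-degrading PITRM1 fell (-0.43). The metalloprotease gene ATP23 rose (0.52, adjusted p = 0.0486, edgeR). In mitochondrial stress signalling 3 of 7 fell (42.9%) and 1 rose (14.3%). With so few genes per group, nothing is read from these shares. CHCHD10 (-0.96), CHCHD2 (-0.49) and EIF2AK1 (-0.30, adjusted p = 0.0407, edgeR) fell. The stress transcription factor DDIT3 (CHOP) rose, with 37.5 and 39.4 TPM in CEBPB and 20.7 and 17.9 TPM in Control (0.81, SE 0.11, adjusted p = 0.00266, edgeR). ATF4 (0.14), ATF5 (0.16) and DELE1 (-0.16) did not pass (adjusted p = 0.149, 0.296 and 0.172, edgeR).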

How the data were processed

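RNA of OCI-AML3 cells was measured in 4 poly(A)-selected libraries, 2 CEBPB and 2 Control, grouped by their titles. The authors processed reads with Trimmomatic 0.39 and kallisto 0.46.2 on GRCh38, per the submitters' processing notes. The annotation release, strand setting and step from transcripts to genes are not given in the sources used here. The deposited tables hold TPM, estimated counts (expected counts, not whole) and effective lengths in bases, another unit, also deposited. In the deposited estimated counts each value is the TPM multiplied by 1 constant per library (18.2 to 22.0). Transcript length is thus already divided out of these counts, and short genes such as TOMM5 hold more counts than reads.

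Of 41084 identifiers 35690 matched a symbol. After rounding, the filterByExpr rule left 13698 identifiers. The trimmed mean of M values gave library factors from 0.9385 to 1.095. The quasi-likelihood test was that of edgeR 4.0.16 (R 4.3.3), with Benjamini-Hochberg adjustment over all identifiers tested. The biological coefficient of variation was 11.3%. Reads were recovered by multiplying TPM by effective length and matching the sum to the library total. They were 93.1 or more in each library for every tested member, and precision at 2 libraries per group is limited by their number. The script was tested on simulated data. Gene coordinates are those of GENCODE v29 (GRCh38), matched without version numbers.

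The members, the other lists and the tests were chosen with earlier results of these data known. All 42 members are accounted for. Values in every library are given for the 3 members of each role with the smallest adjusted p, for those called against the majority and for any short of the filter; TOMM7, TOMM70, TIMM8B, TIMM44, GRPEL2 and AFG3L2 were added after their values were seen. Among the other 47 genes up to 3 per group are named by adjusted p, and a group with calls both ways has at least 1 gene that rose and 1 that fell (so MTCH1 and ATP23, which rose, stand in place of genes that fell with smaller adjusted p). HSPA9, TIMM23B, EIF2AK1, ATF4, ATF5 and DELE1 were added. Alternatives were other scalings, other filters, DESeq2 1.42.0, limma 3.58.1 on log2 TPM with 1 or 0.1 added, a replicate block, recovered reads with a length offset, a null of 1.5-fold and each library left out; a lone library left in a group is taken to vary as much as the pair in the other. Python 3.11.15 with matplotlib 3.10.9 made the figures.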

Additional observations from a re-analysis of the deposited data

How the results depend on the processing

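Of the 27 members called lower, 21 kept their call in all 13 alternatives other than the test against 1.5-fold. The 6 that lost it in some alternative were AFG3L2, CLPP, PMPCA, TIMM10, TIMM8B and TOMM7. Of the 3 called higher, LONP1 and YME1L1 kept the call in those 13 and CLPX did not. No call changed direction in any of the 14 alternatives.

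Against 1.5-fold, 12 members were lower and 0 higher, 4 of the other 47 genes lower and 0 higher, and 1188 of all identifiers lower and 1186 higher. With limma on log2(TPM + 1) or log2(TPM + 0.1), 5 members were higher. The other 47 genes gave 10 higher with library totals or 1 added to TPM and 11 with 0.1 added, and 13 lower in these 3 settings. Of all 13698 identifiers, 4424 to 4498 were higher and 2360 to 2448 lower in these 3 settings. The members' median was -0.32 in the same 3 settings (-0.3206 with library totals, -0.3161 and -0.3205 in limma). With 1 library left out, 22 to 27 members were lower and 2 to 3 higher, the members' median ran from -0.58 to -0.42, and of the 47 other genes 13 to 17 were lower and 1 to 5 higher. TIMM22 passed the filter without Control replicate 2 and then passed as lower (-7.67, adjusted p = 0.0312, edgeR), a value that rests on Control replicate 1.

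Members short of the threshold that changed sign did so by small amounts: TOMM70 (0.048 with library totals, 0.047 and 0.048 in limma), TIMM17A (0.046, 0.044 and 0.044), TIMM17B (0.11, 0.11 and 0.11), PMPCB (-0.015 with recovered reads) and MTX2 (-0.0013 without a filter, -0.051 with recovered reads). Over the 4 fits with 1 library left out, MTX2 ran from -0.065 to 0.066, MTX1 from -0.025 to 0.17 and TIMM17B from -0.13 to 0.014. The cause was not tested.

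Whether libraries with the same replicate number in their titles were handled together is not stated in the sources used here. Deviations from the group means correlated at -0.0264 between CEBPB 1 and Control 1. A value near 0 shows no strong shared effect but cannot show that the libraries were unpaired. With the replicate number as a block, 27 members were lower and 3 higher, the same genes, and 3308 of all identifiers lower and 3174 higher. The smallest change called among the members was 0.24 on the log2 scale (CLPX), from 2 libraries per group.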
